A study of Mus musculus with 2 samples.

Results

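The transcription factors Mafa, Pdx1, Nkx6-1, Nkx2-2, Neurod1, Isl1, Pax6, Rfx6, Foxa2 and Insm1 were followed in single islet cells. These 10 genes, of 31053 in the count tables, were taken by name as factors known for making and keeping the insulin-producing β cell. All 10 had unique molecular identifiers (UMIs, which tag each captured transcript) in both libraries, and all 10 passed the minimum of 100 UMIs in β-like cells.

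Islets of male C57/B6 mice aged 16 weeks were profiled by droplet single-cell RNA sequencing (10x Genomics 3′ chemistry, version 3) after dead cells had been removed with a kit. One library, wild type (WT), is labelled with no diet, and the other (HFD) is from mice given high-fat food with 60% of calories as fat between 6 and 16 weeks of age. No transgene or other treatment is named for either group. Each library pooled the islets of 4 mice and each group held 1 library, so mice cannot be told apart, and neither can diet, islet preparation and library. No test or p-value is therefore given, and every 95% interval covers counting error only.

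β cells are built and kept by a network of transcription factors. Pdx1 and Nkx6-1 act from the pancreatic progenitor onward, Neurod1, Nkx2-2, Pax6, Isl1, Rfx6 and Insm1 work across the endocrine lineages, Foxa2 opens and regulates endodermal genes, and Mafa comes late and marks mature β cells of the mouse. Several of them bind the insulin promoters directly, Pdx1 at homeodomain sites, Neurod1 at E-boxes and Mafa at the element named after it.

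Depth differed between the libraries. The WT library held 73843674 UMIs over 3895 barcodes and the HFD library 94375138 UMIs over 8951 barcodes, and 2479 WT and 6656 HFD cells were kept with at least 500 genes and at most 20% mitochondrial UMIs. The 2 libraries shared 9 barcodes, 3 of them kept. Cells were first clustered without the hormone genes, the 10 factors and the other factors listed here, and named from marker genes. The endocrine clusters other than β-like were divided again with the hormone genes kept. The α-like and δ-like classes, a class led by Ppy and a mixed-hormone class come from that division. Their names rest on hormone UMIs and marker genes. The β-like class held 1789 WT cells with a median of 29001 UMIs and 5554 HFD cells with a median of 12003.5 UMIs, and insulin transcripts made up 61.3% and 57.2% of its UMIs. The control classes were small: 46 WT and 154 HFD α-like cells (glucagon producers) with median UMIs of 10317.5 and 4204.5, and 49 WT and 115 HFD δ-like cells (somatostatin producers) with medians of 7258 and 2800. Levels are given as CPM, the UMIs of a gene scaled to 1000000 UMIs of the same class and library.

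Promoters that this network is known to act on are shown to give the letters its proteins can read. Each is the 250 bases before the gene's start, 5′ to 3′ on the gene's strand, from RefSeq (GRCm38.p6), and none overlaps an annotated exon of its gene. Capitals mark letters found on either strand: TAAT is the homeodomain core, CANNTG the E-box core, and TCAGC a part of the Maf element. The E-box and Maf letters can overlap, as they do once in Slc2a2. Ins1 encodes insulin, Slc2a2 the glucose transporter GLUT2, and Foxa2 is shown as the factor past 1.5-fold lower in HFD that had an entry, with the window that ends at the start of the annotated gene. The windows are chr19:52264047-52264296 (+ strand) for Ins1, chr3:28697653-28697902 (+ strand) for Slc2a2 and chr2:148046970-148047219 (− strand) for Foxa2.
Ins1: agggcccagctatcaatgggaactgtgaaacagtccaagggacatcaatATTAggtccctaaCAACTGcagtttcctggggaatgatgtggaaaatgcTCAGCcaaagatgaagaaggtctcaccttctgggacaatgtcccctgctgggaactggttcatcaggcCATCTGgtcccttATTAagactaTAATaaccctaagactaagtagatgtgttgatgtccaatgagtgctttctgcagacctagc
Slc2a2: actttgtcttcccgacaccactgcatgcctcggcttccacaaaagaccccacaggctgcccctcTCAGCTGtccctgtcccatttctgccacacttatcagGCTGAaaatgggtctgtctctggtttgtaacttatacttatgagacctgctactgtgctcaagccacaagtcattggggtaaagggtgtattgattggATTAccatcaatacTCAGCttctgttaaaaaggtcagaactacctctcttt
Foxa2: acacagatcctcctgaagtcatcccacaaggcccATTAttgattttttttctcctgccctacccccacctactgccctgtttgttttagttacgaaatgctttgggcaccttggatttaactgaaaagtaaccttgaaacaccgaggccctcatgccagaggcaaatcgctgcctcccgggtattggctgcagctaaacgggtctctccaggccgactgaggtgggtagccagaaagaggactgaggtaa

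The Ins1 window held 3 TAAT cores, 2 E-box cores and 1 TCAGC, the Slc2a2 window 1, 1 and 3, and this Foxa2 window 1 TAAT alone. Of the other Foxa2 windows, which lie further into the gene and are not printed, 1 held 2 TCAGC and the other held 2 TAAT and 1 CANNTG. Short letters of this kind are common: TAAT stood in 54.9% of 32851 promoter windows of the same length, CANNTG in 66.2% and TCAGC in 46.8%. The forkhead letters TGTTTAC stood in 3.2%. Of the 10 factors, 8 had RefSeq windows (11 in all), and TAAT was found for 5, CANNTG for 6, TCAGC for 5 and TGTTTAC for 0 of them. Mafa and Insm1 had no entry. These matches are descriptions of letters and not of binding.

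The 10 factors did not share one pattern across islet classes. Mafa and Nkx6-1 were far higher in β-like than in α-like and δ-like cells, Pdx1 was in β-like and δ-like cells, and Isl1, Pax6, Neurod1, Nkx2-2, Rfx6 and Foxa2 were found in β-like, α-like and δ-like cells, as was Insm1, lower in α-like cells. The name β cell identity factor thus covered genes that other endocrine classes also held in these data.

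Mafa (ENSMUSG00000047591, GRCm38 as for all coordinates here, chromosome 15, 75745490 to 75748228, − strand, a gene of 1 exon) encodes the activator of insulin transcription found in mature β cells. In β-like cells the WT level was 313.6 CPM (309 to 318; 18140 UMIs) and the HFD level 163.9 CPM (161 to 167; 12506 UMIs). In α-like cells it was 5.99 CPM in WT and 2.84 CPM in HFD, from 3 and 2 UMIs, and in δ-like cells 12.9 and 2.83 CPM, from 5 and 1 UMIs. Endothelial-like cells, which should lack it, gave 15.6 CPM in WT and 8.96 CPM in HFD, so the α-like and δ-like values lay at the level of free RNA. The WT level in β-like cells was 52.4-fold that in α-like cells (17.9 to 254) and 24.2-fold that in δ-like cells (10.4 to 74.6).

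Nkx6-1 (chromosome 5, 101658139 to 101664996, − strand, 3 exons) encodes a homeodomain repressor that keeps α cell genes silent in β cells. It stood at 164.6 CPM (WT) and 116.4 CPM (HFD) in β-like cells. In α-like cells it was at 5.99 and 8.53 CPM, and in δ-like cells at 7.77 and 14.2 CPM, each from 3 to 6 UMIs. Its WT level in β-like cells was 27.5-fold that in α-like cells (9.40 to 133). In a small class led by Ppy (16 WT and 23 HFD cells) it was at 30.2 CPM (9 UMIs) and 46.4 CPM (7 UMIs), and the β-like level was 5.45-fold (2.87 to 11.9) and 2.51-fold (1.22 to 6.24) as high. Nkx6-1 was also present in WT ductal-like cells at 47.0 CPM (34.3 to 62.9; 45 UMIs).

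Pdx1 (chromosome 5, 147269959 to 147275848, + strand, 2 exons) encodes the homeodomain factor needed for pancreas formation and for insulin transcription. Its level was 72.9 CPM in WT and 52.6 CPM in HFD β-like cells. It was nearly absent from α-like cells, with 1 WT and 2 HFD UMIs, and present in δ-like cells at 114 CPM in WT, from 44 UMIs, and at 93.5 CPM in HFD, from 33 UMIs. On the CPM scale the β-like level was 0.640 (0.476 to 0.882) of the δ-like level in WT and 0.562 (0.400 to 0.818) in HFD. This order depended on the scale, because hormone, mitochondrial and rRNA-overlapping genes took 65.5% of WT β-like UMIs and 33.0% of WT δ-like UMIs. Scaled to the remaining UMIs the ratios were 1.24 (0.925 to 1.71) and 0.978 (0.696 to 1.42), and the classes no longer differed beyond counting error.

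Isl1 (chromosome 13, 116298281 to 116309689, − strand, 6 exons), a LIM-homeodomain factor of all islet endocrine cells, was highest in δ-like cells. Its level was 399 CPM in WT and 295 CPM in HFD δ-like cells, 180 and 83.9 CPM in α-like cells, and 71.7 and 63.0 CPM in β-like cells. Without hormone, mitochondrial and rRNA-overlapping genes the β-like level was still 0.349 of the δ-like level in WT (0.297 to 0.413) and 0.372 in HFD. In the WT library the 3 classes were separated on both scales.

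Pax6 (chromosome 2, 105668900 to 105697364, + strand, 13 exons), a paired-domain factor that islet hormone genes need, followed the same order on the CPM scale in WT, with 230 CPM in δ-like, 124 CPM in α-like and 99.4 CPM in β-like cells. In HFD the levels were 159, 82.5 and 86.8 CPM. The α-like and β-like levels did not differ beyond counting error on this scale in either library, but without hormone genes the β-like level was 1.38-fold (1.07 to 1.80) the α-like level in WT and 1.53-fold (1.19 to 2.02) in HFD. The δ-like excess was not kept on the scale without hormone genes, where the β-like to δ-like ratio was 0.838 (0.680 to 1.05) in WT.

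Insm1 (chromosome 2, 146221921 to 146225020, + strand, 1 exon), a zinc-finger factor of endocrine differentiation, was lower in α-like than in β-like cells on both scales. It stood at 97.3 CPM (WT) and 87.0 CPM (HFD) in β-like cells, at 39.9 and 51.2 CPM in α-like cells and at 179 and 99.2 CPM in δ-like cells. The β-like to α-like ratio was 2.44 (1.58 to 3.99) in WT and 1.70 (1.23 to 2.43) in HFD. Against δ-like cells the order turned with the scale, from 0.544 (0.429 to 0.701) on the CPM scale in WT to 1.06 (0.835 to 1.36) without hormone genes.

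Neurod1 (chromosome 2, 79452521 to 79456751, − strand, 2 exons), the E-box factor that activates insulin genes together with ubiquitous partners, stood at 89.5 CPM (WT) and 68.0 CPM (HFD) in β-like cells. Its α-like levels were 130 and 56.9 CPM and its δ-like levels 69.9 and 62.4 CPM. In WT its β-like level was 0.690 (0.540 to 0.895) of the α-like level on the CPM scale and 1.18-fold (0.927 to 1.54) on the scale without hormone genes, and against δ-like cells these values were 1.28 (0.879 to 1.94) and 2.49 (1.71 to 3.78). Part of it shares 201 exonic bases with Cerkl on the same strand, and how reads there were counted is not given in the sources used here. Pdx1, Nkx2-2 and Pax6 overlap the antisense genes Plut, 6430503K07Rik and Pax6os1, and whether counting used strand is not given in the sources used here. Nkx2-2 (chromosome 2, 147177546 to 147194243, − strand, 2 exons), a homeodomain factor that keeps β cells from other islet fates, was at 56.2 and 39.4 CPM in β-like, 69.9 and 52.6 CPM in α-like and 72.5 and 42.5 CPM in δ-like cells. Its β-like level did not differ from either control class beyond counting error on the CPM scale, and without hormone genes it was 1.51-fold (1.04 to 2.27) the δ-like level in WT.

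Rfx6 (chromosome 10, 51677756 to 51730432, + strand, 19 exons), a winged-helix factor of endocrine differentiation, had the fewest UMIs of the 10 in β-like cells. Its level was 18.1 CPM in WT and 13.8 CPM in HFD β-like cells, from 1049 and 1052 UMIs, and 36.3 and 48.2 CPM in δ-like cells. Foxa2 (chromosome 2, 148042877 to 148046969, − strand, 3 exons), a forkhead pioneer factor of endoderm, was at 31.6 and 19.1 CPM in β-like, 39.9 and 24.2 CPM in α-like and 46.6 and 25.5 CPM in δ-like cells. In WT its β-like to α-like ratio was 0.790 (0.510 to 1.30) on the CPM scale and 1.36 (0.876 to 2.23) without hormone genes. Its β-like level did not differ from either control class beyond counting error on either scale. Foxa2 was found outside the endocrine classes too, at 37.6 CPM in WT ductal-like cells (26.4 to 52.1; 36 UMIs).

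**Figure D1:**
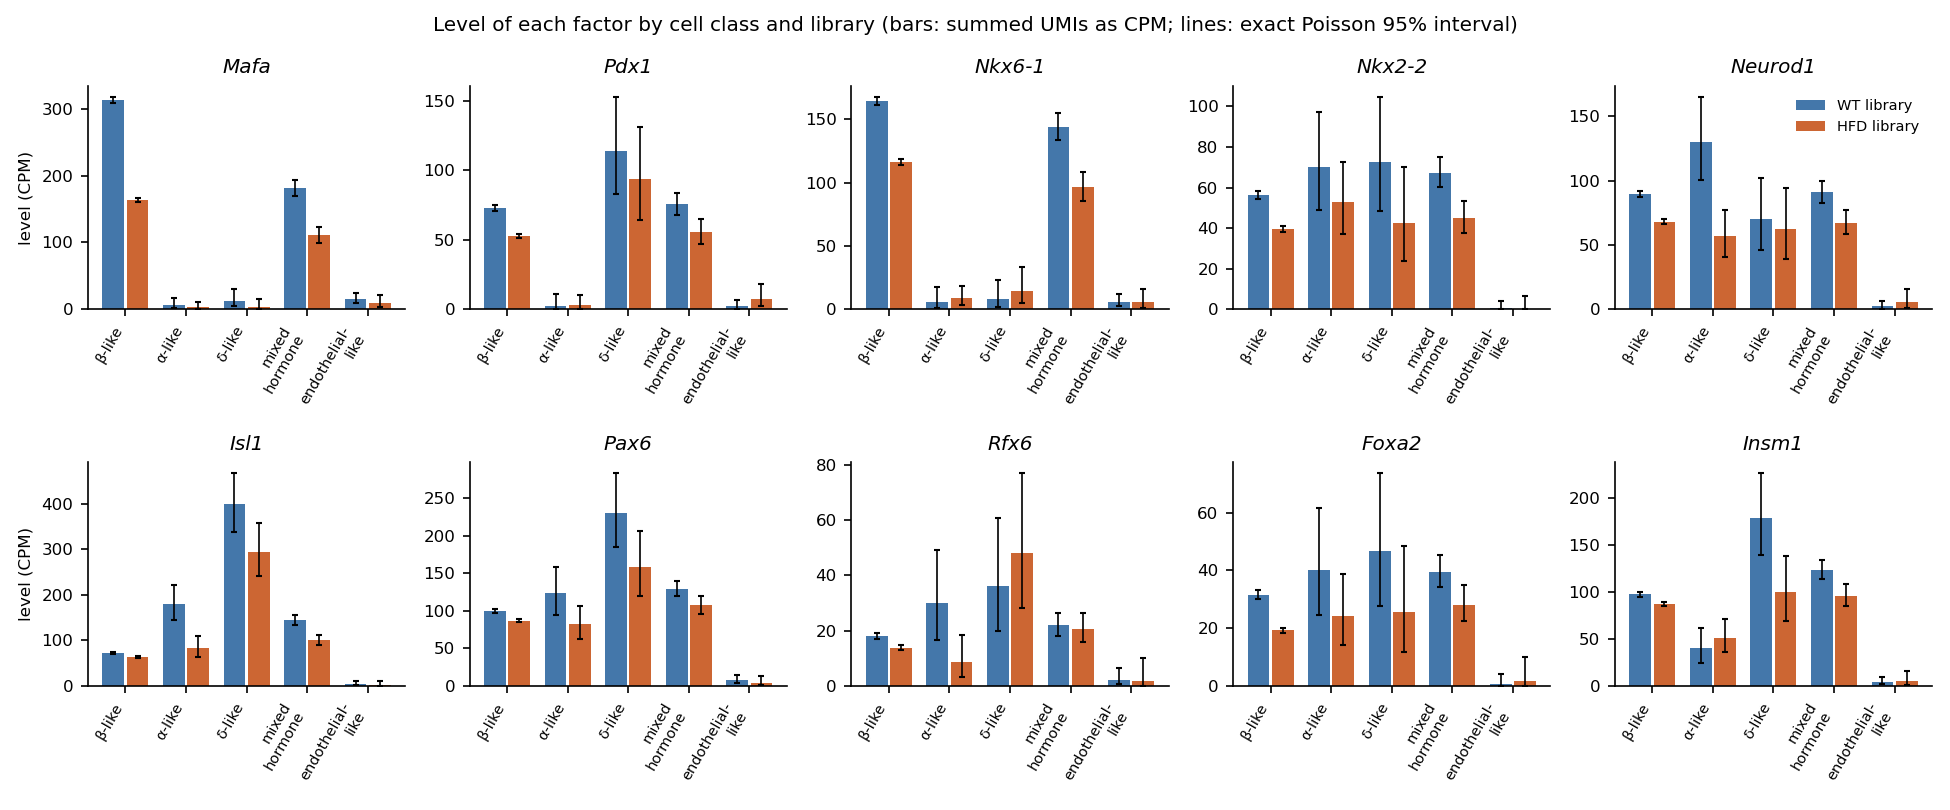
Bars give the level of each of the 10 factors (CPM, linear axes from 0 that differ between panels) in β-like, α-like, δ-like, mixed-hormone and endothelial-like cells of the WT and HFD libraries, and lines the exact Poisson 95% interval. Mafa and Nkx6-1 lie far higher in β-like than in α-like and δ-like cells, while Isl1 and Pax6 reach their highest levels in δ-like cells.

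In β-like cells all 10 factors were lower in the HFD library. Mafa was lowest in relation to WT, at 0.523 of its WT level (0.511 to 0.535), and Foxa2 followed at 0.606 (0.565 to 0.650). This order moved with depth: with at most 15000 UMIs per cell the log2 difference of Nkx2-2 was −0.69 and that of Mafa −0.67, and from 10000 to 15000 UMIs Foxa2 (−1.24), Nkx2-2 (−1.06) and Rfx6 (−0.89) stood below Mafa (−0.88). Pdx1, Nkx6-1, Nkx2-2, Neurod1 and Rfx6 stood between 0.701 and 0.760 of WT, and Isl1, Pax6 and Insm1 between 0.873 and 0.895. The summed level of the 10 factors was 1015 CPM in WT and 710 CPM in HFD, a ratio of 0.700 (0.691 to 0.708).

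On the log2 scale the HFD to WT difference of Mafa was −0.94 (−0.97 to −0.90), and 1.04% of the 11263 genes with at least 100 UMIs had a lower ratio. The difference of Foxa2 was −0.72 (−0.82 to −0.62), with 2.20% of genes lower. Nkx2-2 at −0.51 (−0.58 to −0.44), Nkx6-1 at −0.50 (−0.54 to −0.46) and Pdx1 at −0.47 (−0.53 to −0.41) formed a group whose intervals overlapped, and 5.02% to 6.09% of genes had lower ratios. Neurod1 at −0.40 (−0.45 to −0.34) and Rfx6 at −0.40 (−0.52 to −0.27) came next. Pax6 at −0.20 (−0.25 to −0.14), Isl1 at −0.19 (−0.25 to −0.13) and Insm1 at −0.16 (−0.21 to −0.11) lay nearer the middle of all genes, 22.0% to 25.8% of which had lower ratios.

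Past a fold of 1.5, 2 of the 10 factors (Mafa and Foxa2) were lower and 0 higher, beside 3.66% of all 11263 genes lower and 2.98% higher. At a smaller threshold, a log2 difference of 0.32 in size, 7 of 10 were lower, beside 12.0% of all genes. Counting any size, 10 of 10 were lower, beside 50.5% of all genes. The median log2 difference was −0.43 over the 10 factors and −0.00 over all genes. The 10 were picked with results of these data already known, so these counts describe the list and do not test it.

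**Figure D2:**
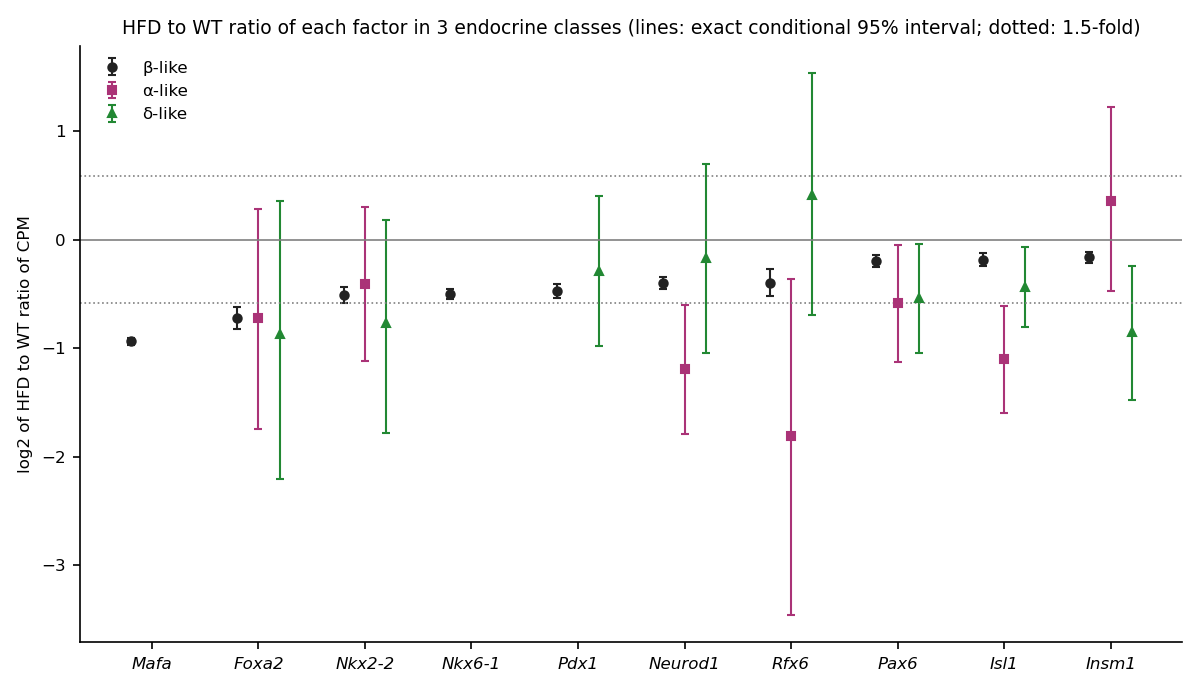
HFD to WT log2 ratio of CPM for each factor in β-like, α-like and δ-like cells, with exact conditional 95% intervals and dotted lines at 1.5-fold. Points of α-like and δ-like cells are drawn only where each library holds more than 3 UMIs. All 10 β-like points lie below 0, from −0.94 for Mafa to −0.16 for Insm1.

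Some of the factors were lower in HFD in the control classes too. In α-like cells Neurod1 was 130 CPM in WT, from 65 UMIs, and 56.9 CPM in HFD, from 40, a log2 difference of −1.19 (−1.80 to −0.60). Isl1 differed there by −1.10 (−1.60 to −0.61), Pax6 by −0.59 (−1.13 to −0.05) and Rfx6, from 15 and 6 UMIs, by −1.81 (−3.46 to −0.36). The intervals of Nkx2-2 (−0.41), Foxa2 (−0.72) and Insm1 (0.36) held 0. The 3 factors with at least 100 UMIs in α-like cells (Neurod1, Isl1 and Pax6) were all past 1.5-fold lower, beside 9.07% of 1036 genes, and the median of all genes there was −0.08.

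In δ-like cells Insm1 was 179 CPM in WT and 99.2 CPM in HFD, a log2 difference of −0.85 (−1.48 to −0.24). Pax6 differed by −0.54 (−1.05 to −0.04) and Isl1 by −0.44 (−0.81 to −0.07), and the other 7 intervals held 0. Of the 3 factors with at least 100 UMIs (Isl1, Pax6 and Insm1), 1 was past 1.5-fold lower, beside 4.19% of 787 genes. Pdx1, the factor that δ-like cells share with β-like cells, differed by −0.28 (−0.98 to 0.40) in δ-like cells.

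Set against each other, the HFD to WT ratio in β-like cells was 1.73-fold that in α-like cells for Neurod1 (1.15 to 2.64) and 1.88-fold for Isl1 (1.34 to 2.67), so both differed less between the libraries in β-like cells. For Insm1 the β-like ratio was 1.61-fold the δ-like ratio (1.06 to 2.50). The other comparisons with α-like and δ-like cells had intervals that held 1. For Mafa, the α-like and δ-like UMIs were too few to tell, with 3 and 2 UMIs against 5 and 1. A class with UMIs of more than one islet hormone, 135 WT and 239 HFD cells whose content of doublets was not tested, had Mafa at 182 and 111 CPM, and the β-like ratio of Mafa was 0.857 (0.752 to 0.978) of the ratio in that class.

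Because WT cells were deeper, the ratios were taken again among β-like cells of like depth. Mafa was lower in HFD in every range of UMIs per cell, but by less in shallow cells. Up to 5000 UMIs (105 WT and 171 HFD cells) it was 255 CPM in WT and 220 CPM in HFD, a log2 difference of −0.22 (−0.62 to 0.19) whose interval held 0. From 5000 to 10000 UMIs (55 and 1805 cells) the levels were 241 and 190 CPM, a difference of −0.34 (−0.64 to −0.04).

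In deeper cells the Mafa difference widened. From 10000 to 15000 UMIs (72 and 1671 cells) the levels were 317 and 173 CPM (−0.88), from 15000 to 30000 UMIs (698 and 1744 cells) 314 and 152 CPM (−1.04), and above 30000 UMIs (859 and 163 cells) 315 and 133 CPM (−1.25). The WT level was alike in the 3 deepest ranges, while the HFD level was lower in each deeper range.

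Below 10000 UMIs few of the other factors differed beyond counting error, and above it nearly all did. The share of all genes that did so was not computed by depth, so counts of factors here have no background. From the range of 10000 to 15000 UMIs to that above 30000 UMIs, Pdx1 (−0.70, −0.79 and −0.99) and Insm1 (−0.25, −0.33 and −0.41) also widened steadily. The rest did not, though Nkx6-1 was widest above 30000 UMIs (−0.93). Between 15000 and 30000 UMIs, the range best filled in both libraries, all 10 intervals lay below 0, with Foxa2 at −0.83, Pdx1 at −0.79, Rfx6 at −0.65, Nkx6-1 at −0.60, Neurod1 at −0.55, Nkx2-2 at −0.53, Pax6 at −0.37, Insm1 at −0.33 and Isl1 at −0.31. Above 30000 UMIs all 10 lay below 0 again. From 10000 to 15000 UMIs all but Insm1 (−0.25, −0.54 to 0.06) did. In that range Foxa2 (−1.24), Nkx2-2 (−1.06), Isl1 (−0.60) and Pax6 (−0.56) had larger differences than in deeper cells, where Foxa2 was −0.92, Nkx2-2 −0.62, Isl1 −0.41 and Pax6 −0.28 above 30000 UMIs. From 5000 to 10000 UMIs, Mafa alone had an interval off 0, and up to 5000 UMIs the only one was Pax6, which was higher in HFD (0.84, 0.18 to 1.54; 25 and 91 UMIs). Over all cells of up to 10000 UMIs, a division chosen after seeing the data, Foxa2 was at 0.43 and Rfx6 at 0.35. In the ranges below and above 5000 UMIs these rest on 2 and 10 WT UMIs of Foxa2 and 5 and 5 of Rfx6. The intervals of both factors held 0 in each of these ranges.

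**Figure D3:**
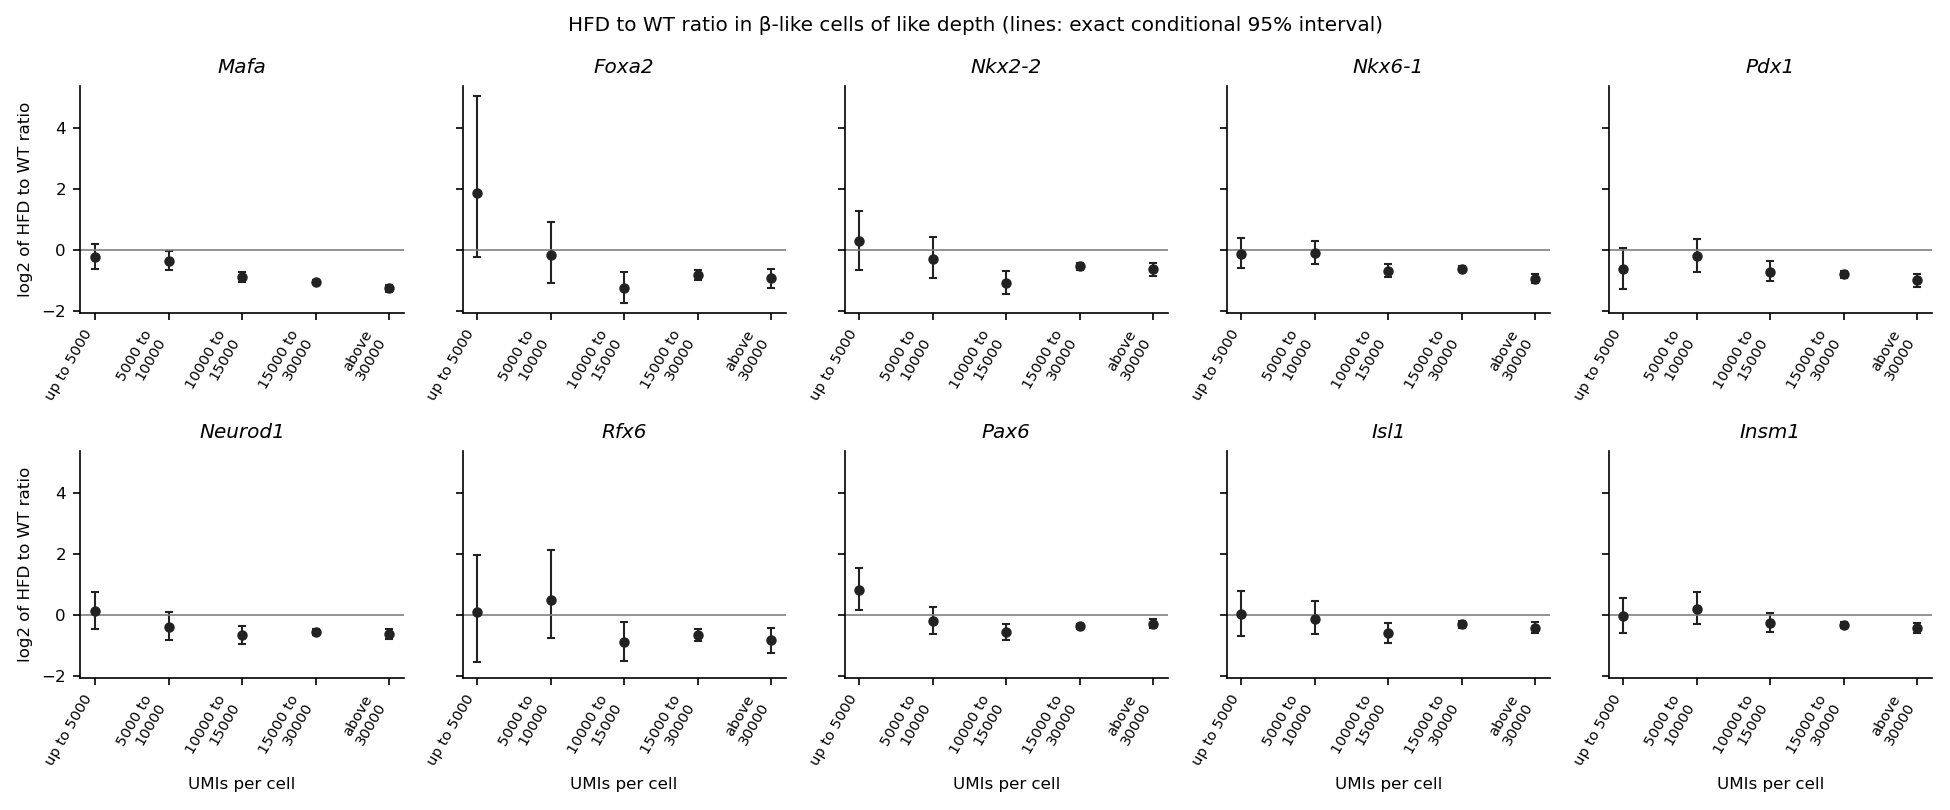
HFD to WT log2 ratio of each factor in β-like cells, by range of UMIs per cell, with exact conditional 95% intervals. Mafa goes from −0.22 in cells of up to 5000 UMIs to −1.25 in cells above 30000 UMIs.

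β-like cells formed 7 clusters that the libraries filled unequally. Clusters 0, 1 and 2 held 1326, 1283 and 1174 HFD cells and 20, 17 and 10 WT cells, whereas clusters 5 and 6 held 682 and 484 WT cells and 78 and 198 HFD cells. Clusters 3 (344 WT and 767 HFD cells) and 4 (232 and 728) were mixed. The factors had no part in the clustering.

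Mafa was lower in HFD within each of the 4 mixed or WT-rich clusters. Its levels were 231 CPM in WT and 174 CPM in HFD in cluster 3, 302 and 202 CPM in cluster 4, 346 and 234 CPM in cluster 5, and 327 and 212 CPM in cluster 6. Depth was not matched within clusters. Median UMIs in clusters 3, 4, 5 and 6 were 23032, 45982, 33293 and 25200.5 in WT and 10145, 14803.5, 9356.5 and 8467.5 in HFD. Mafa was also lower in HFD in clusters 0 (356 and 123 CPM) and 1 (231 and 186 CPM), where WT had 20 and 17 cells. In the HFD library its lowest level was 123 CPM in cluster 0, which had Dapl1, Iapp and Aldh1a3 among its leading genes, and its highest was 234 CPM in cluster 5. The 10 WT cells of cluster 2 went the other way, with 73.5 CPM (41.1 to 121; 15 UMIs) beside 168 CPM in HFD.

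The other factors plotted by cluster varied in direction. WT and HFD intervals overlapped for Nkx6-1 in cluster 6, Isl1 in clusters 5 and 6, and Foxa2 in clusters 4, 5 and 6. Nkx6-1 was higher in HFD in cluster 3 (108 CPM in WT and 123 CPM in HFD) and lower in clusters 4 (163 and 140 CPM), 5 (173 and 125 CPM) and 6 (195 and 171 CPM). Isl1 was higher in HFD in clusters 3 (46.7 and 57.7 CPM) and 4 (71.0 and 87.2 CPM) and level in cluster 6 (98.2 and 99.2 CPM). Isl1 in cluster 5 was 66.8 and 60.0 CPM. Foxa2 was 25.4 and 18.2 CPM in cluster 3, 33.2 and 26.7 CPM in cluster 4, 30.4 and 24.99 CPM in cluster 5, and 36.4 and 43.2 CPM in cluster 6.

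Over clusters 3 to 6 alone, each with at least 10% of its cells from either library, the Mafa difference was −0.71 and the median of the 10 factors −0.22. Mafa was then the only factor past 1.5-fold, Foxa2 was at −0.36, Nkx2-2 at −0.32, Nkx6-1 at −0.29 and Pdx1 at −0.25, and Isl1 was higher in HFD, at 0.07. This selection of clusters was chosen after seeing the data, and the share of all genes past the fold was not computed for it. How far the differing cluster makeup carries the β-like ratios was not tested beyond these values.

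**Figure D4:**
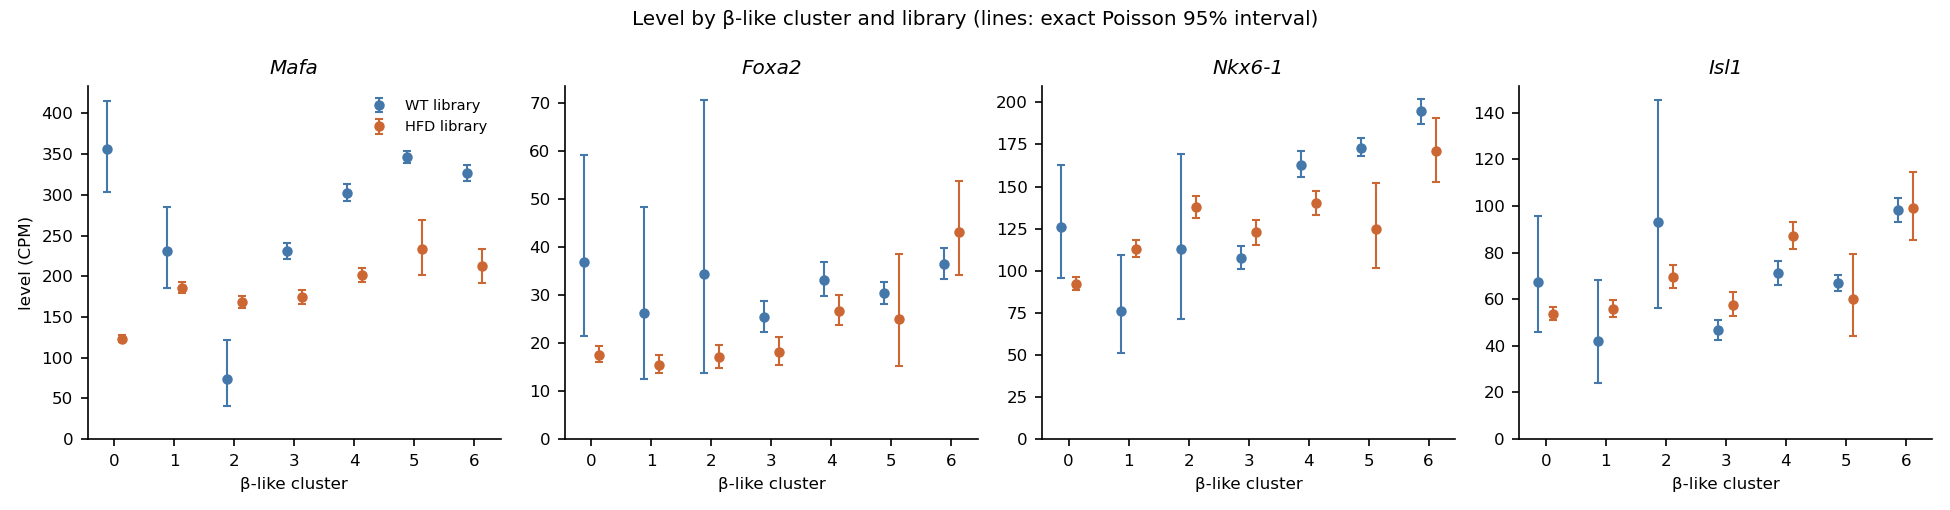
Level of Mafa, Foxa2, Nkx6-1 and Isl1 (CPM) in each of the 7 clusters of β-like cells, WT and HFD, with exact Poisson 95% intervals. Mafa in WT lies above HFD in clusters 3 to 6, while Isl1 in clusters 3 and 4 lies higher in HFD.

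In single cells thinned to 5000 UMIs (1684 WT and 5383 HFD β-like cells, with 105 and 171 shallower cells left out), Mafa was detected in 72.7% of WT cells (70.5 to 74.9) against 51.3% in HFD (49.96 to 52.7). Unthinned, the shares were 93.7% and 76.3%. Among endothelial-like cells at the same depth, 5.56% of 90 WT cells and 0 of 44 HFD cells, which allows a share of up to 6.82%, held Mafa. The β-like shares stood far above this background. Median UMIs before thinning, over all kept endothelial-like cells, were 6292.5 and 3477.

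More HFD than WT cells had no Mafa UMI, and fewer had 2 or more. Of WT β-like cells, 27.3% had 0, 28.2% had 1, 21.9% had 2, 11.6% had 3 and 11.0% had 4 or more Mafa UMIs. In HFD, 48.7% had 0, 29.4% had 1, 13.8% had 2, 5.44% had 3 and 2.62% had 4 or more.

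The share of cells with a UMI was lower in HFD for each factor at this depth. Nkx6-1 had 54.1% and 43.0%, Pdx1 32.3% and 23.5%, Neurod1 36.6% and 29.2%, and Nkx2-2 24.8% and 17.3%. Foxa2 had 15.6% and 9.18%, Insm1 39.7% and 35.0%, Pax6 41.2% and 35.8%, and Isl1 30.9% and 27.3%. For Rfx6, with 8.14% and 7.08%, the intervals overlapped.

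A β-like cell at this depth showed a median of 4 of the 10 factors in WT and 3 in HFD, with means of 3.56 and 2.79. No factor at all was seen in 0.891% of WT cells (0.499 to 1.46) and 3.81% of HFD cells (3.31 to 4.35). At the other end, 1.60% and 0.743% showed 7 factors.

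Cells with more Mafa carried slightly more of the other 9 factors. In WT the mean number of other factors was 2.76 in 459 cells with no Mafa UMI, 2.76 in 475 with 1 and 2.93 in 750 with 2 or more. In HFD it was 2.21 in 2621 cells, 2.28 in 1584 and 2.41 in 1178. HFD cells with 2 or more Mafa UMIs thus had fewer other factors than WT cells with none, and their insulin share was 56.8% beside 56.6% in HFD cells with no Mafa UMI. In WT the insulin share was 60.6% with 2 or more Mafa UMIs and 58.8% with none, and the median depth before thinning was 32134.5 and 27450 UMIs.

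Nkx6-1 followed Mafa most plainly in HFD, found in 39.9% of cells with no Mafa UMI (38.0 to 41.8) and 49.7% of cells with 2 or more (46.8 to 52.6). Pax6 went from 34.5% to 39.4% over the same cells. Insm1 (35.3% to 33.4%) and Rfx6 (7.44% to 6.11%) went the other way in HFD, as did Foxa2 in WT (18.1% to 14.5%), with intervals that overlapped. These figures describe cells of 1 library each and are not replicates.

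**Figure D5:**
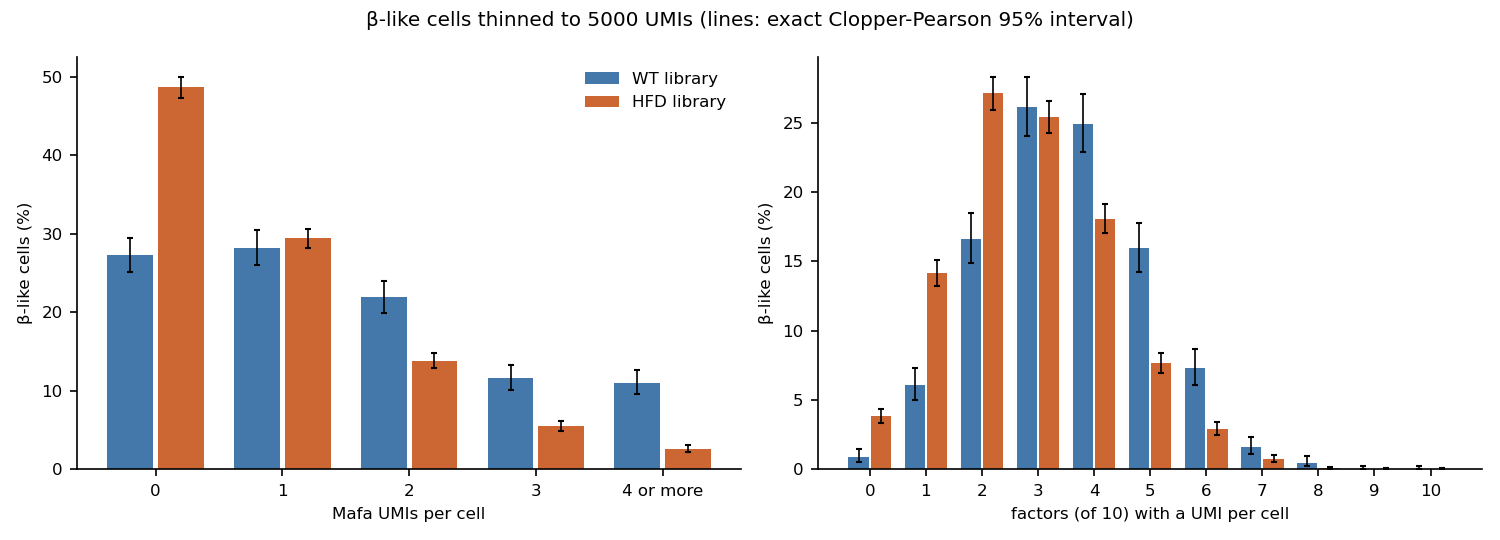
Share of β-like cells (percent, each cell thinned to 5000 UMIs) by number of Mafa UMIs and by number of the 10 factors found, WT and HFD, with exact Clopper-Pearson 95% intervals. In HFD 48.7% of cells have no Mafa UMI, beside 27.3% in WT.

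Within the HFD library, β-like cells with an Aldh1a3 UMI had lower levels of 9 factors, Insm1 excepted, and for 5 of them the intervals were separate. The share of all genes lower in such cells was not computed, so these counts have no background to be read against. Aldh1a3 encodes an aldehyde dehydrogenase often used as a sign of β cells losing their identity. The 768 cells with it had a median of 16919 UMIs and the 4786 without it 11504, so depth moved with the division. Mafa was 132 CPM with and 171 CPM without it, Nkx6-1 99.4 and 120 CPM, Pdx1 43.5 and 54.7 CPM, and Neurod1 53.7 and 71.2 CPM. Isl1, at 54.4 and 64.9 CPM, was the fifth. The intervals of Nkx2-2 (37.7 and 39.8 CPM), Pax6 (81.4 and 88.0 CPM), Rfx6 (11.5 and 14.3 CPM), Foxa2 (17.7 and 19.5 CPM) and Insm1 (87.6 and 86.9 CPM) overlapped.

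Other factors of β cells and islets, a list of 13 with 12 measured, moved less as a group. Past 1.5-fold, 2 were lower and 1 higher, 9 of 12 were lower at any size, and the median log2 difference was −0.19. Of all 11263 genes, 3.66% were lower and 2.98% higher past 1.5-fold, and 50.5% were lower at any size. Ldb1, the partner protein through which LIM factors such as Isl1 act, was 13.5 CPM in WT and 6.63 CPM in HFD (−1.03, −1.19 to −0.87), though it shares exonic bases with Pprc1 on the opposite strand. Mnx1, a homeodomain factor of β cells, was 6.74 and 4.22 CPM (−0.68). Hnf4a, a nuclear receptor, was higher, at 8.11 and 14.3 CPM (0.82, 0.66 to 0.98).

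Factors of α cells, δ cells and progenitors were near 0 in β-like cells, and 2 of 11 reached 100 UMIs. Both of these were lower in HFD, 1 of them past 1.5-fold, beside 50.5% and 3.66% of all genes.

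Of 16 genes that these factors are known to act on, 2 were past 1.5-fold lower, 1 was higher, 13 were lower at any size, and the median was −0.18. The matching shares of all genes were 3.66%, 2.98% and 50.5%. Slc2a2, whose promoter letters are shown above, was 200 CPM in WT and 110 CPM in HFD (−0.85, −0.90 to −0.81). Glp1r, the receptor of the incretin GLP-1, was 2.30 and 1.43 CPM (−0.69). Iapp, which encodes amylin, was higher, at 43421 and 67865 CPM (0.64). The insulin genes, direct targets of Mafa, Pdx1 and Neurod1, differed little on the CPM scale, with −0.14 for Ins1 and −0.08 for Ins2. Together they made up 61.3% of WT and 57.2% of HFD β-like UMIs, which this scale divides by, so their ratios are pulled towards 0. The scale without hormone, mitochondrial and rRNA-overlapping genes shifts every β-like log2 ratio by −0.18.

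Other marker lists moved between the libraries in the same β-like cells. The summed level of 7 immediate early genes, which cells switch on quickly after stimulation, was 2553 CPM in WT and 1136 CPM in HFD, with all 7 detected. Acinar markers, 7 of 7 detected, were 145 CPM in WT and 456 CPM in HFD, and erythroid markers 1.14 and 43.0 CPM. α cell markers, 6 of 6 detected, summed to 1499 and 2294 CPM, and Ttr was the highest of them in both libraries. The glucagon gene Gcg went the other way, with 0.0280% of this class's UMIs for WT and 0.0243% for HFD. δ cell markers (231 and 228 CPM) and endothelial markers (4.84 and 4.50 CPM) were level. The part of these differences in the values of the 10 factors was not tested.

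Over the sums of 19 classes and libraries with at least 20 cells, the levels most like that of Mafa among 7260 genes were those of G6pc2, a glucose-6-phosphatase subunit of islets (Pearson r = 0.941 on log2(CPM + 1)), Asb11 (0.905), Cox6a2 (0.898), Ero1lb (0.897) and Aldh1l2 (0.896). Those most like Pdx1 were Rasgrf1 (0.944), Fbxo16 (0.898), Vstm2l (0.896), Dlg3 (0.894) and Wfs1 (0.891). The sums share libraries and differ in depth, so these are descriptions of likeness only.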

How the data were processed

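Processed single-cell data of 1 WT and 1 HFD library were used. The authors deposited unnormalized UMI counts of each gene in each barcode, obtained by aligning to mm10 with Cell Ranger (v3.0.2). Strand use in counting is not given in the sources used here. The scale of the mitochondrial maximum in the study's methods is unclear, and 20% was used. The study's UMI maximum was not applied, and 15000 was tried as an alternative. Because the automatic doublet threshold of Scrublet called 2 WT barcodes and 1 HFD barcode, too few to be credible, the highest-scoring 0.8% per 1000 barcodes were left out, 121 WT (3.11%) and 641 HFD (7.16%).

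Scrublet was run through scanpy (v1.11.5). The cells of both libraries were clustered together, using 2000 variable genes, 50 principal components, 15 neighbours and the Leiden method at resolution 1 (igraph v0.11.9). Endocrine clusters other than β-like were divided again with the hormone genes kept, fewer components and a lower resolution. Marker lists gave the clusters their names, together with hormone UMIs in this second division, with mixed-hormone cells set apart. Counts were summed per class and library and scaled to CPM. Sums carry exact Poisson intervals, ratios exact conditional intervals and shares exact Clopper-Pearson intervals, all at 95% and computed with scipy (v1.17.1). A factor was counted as past the threshold at 1.5-fold, and the background was every gene whose UMIs summed to 100 or more. The scripts were tested on simulated data. The factors and lists were chosen with earlier results of these data known. All 10 factors were named, and from each other list up to 3 genes with the highest and up to 3 with the lowest log2 ratio past 1.5-fold, except 1 gene that is not reported here. Alternatives covered filters, cluster resolution, scaling (TMM from edgeR v4.0.16 among them), thinning and fold.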

Additional observations from a re-analysis of the deposited data

Results flagged for a closer look

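For 3 factors the HFD to WT ratio differed between β-like cells and a control class beyond counting error. The β-like ratio of Neurod1 was 1.73-fold the α-like ratio (1.15 to 2.64), that of Isl1 was 1.88-fold the α-like ratio (1.34 to 2.67), and that of Insm1 was 1.61-fold the δ-like ratio (1.06 to 2.50). The Isl1 value rests on 90 WT and 59 HFD α-like UMIs, the Neurod1 value on 65 and 40, and the Insm1 value on 69 and 35 δ-like UMIs. These intervals compare 2 libraries and not replicates of the diets, and of the 20 comparisons with α-like and δ-like cells, made with no adjustment, these 3 had intervals that left out 1.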

How the results depend on the processing

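Each β-like ratio was recomputed under 18 alternatives, and 176 of the 180 values were lower in HFD, as were 10 of 10 in the main setting. The Mafa difference (−0.94) was −0.67 with a maximum of 15000 UMIs, −0.98 with 10000 to 30000 UMIs per cell, −1.06 at Leiden resolution 2, −1.12 scaled without hormone, mitochondrial and rRNA-overlapping genes (a scale that shifts every β-like log2 ratio by −0.18, so that Mafa stays at −0.94 relative to it), −0.84 as a mean over cells and −0.90 thinned to 5000 UMIs. Over clusters where each library made up at least 10% of the cells it was −0.71, and in cells of up to 10000 UMIs −0.37. The count of factors past the fold (2) was 5 with 10000 to 30000 UMIs, 5 on the scale without hormone genes, 1 over those clusters, 0 up to 10000 UMIs and 7 at a log2 threshold of 0.32 (beside 12.0% of all genes). The median (−0.43) was −0.60, −0.62, −0.22 and −0.12 in the first 4 of these. In those 4 settings the share of all genes past the fold was not computed, so their counts have no background. The scale without hormone genes lowers every β-like gene, so that share moves with it. Reversed values were Isl1 at 0.073 over the clusters, and Pax6 at 0.033, Rfx6 at 0.35 and Foxa2 at 0.43 up to 10000 UMIs. Those of Rfx6 and Foxa2 rest on few WT UMIs. The Isl1 share of cells thinned to 2000 UMIs was 0.027 points higher in HFD. The Mafa share difference (−21.4 points) was −16.0 points thinned to 2000 UMIs and −17.3 points not thinned. The cause of these moves was not tested. No paired analysis was possible because each group held 1 library, and no replicate could be left out. α-like and δ-like values rest on few cells of low depth.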
